A study of Mus musculus with 6 samples.

Results

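The 10 genes described here handle iron, heme and other metals in macrophages: Hmox1, Fth1, Ftl1, Tfrc, Slc40a1, Slc11a1, Slc11a2, Slc39a14, Mt1 and Mt2. They were taken by name from the gene names printed on the array, and all 10 had at least 1 probe, with 14 probes in all. Named by each probe's RefSeq transcript, or by the printed name where that gave no single symbol, the array held 23808 named genes. The cells were RAW264.7, an established mouse macrophage line derived from a tumour induced by the Abelson leukemia virus in a BALB/c mouse. Control cells were kept in DMEM for 4 h, and the other cells received AEPS, a polysaccharide from roots of Actinidia eriantha, at 50 µg/ml in the same medium for 4 h, with 3 samples per group. RNA was labelled with Cy3 and read on 1-colour Agilent arrays. Strains of the BALB/c background carry an allele of Slc11a1 whose protein does not function normally, which limits the line as a model of that transporter, and both groups share it.

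Macrophages take up old red cells, break down their heme and return the iron to the blood, and during infection they instead hold iron back from microbes. Heme oxygenase opens the heme ring and frees its iron, ferritin stores the iron, the transferrin receptor brings iron in, and ferroportin is the known iron exporter. When cellular iron is low, iron regulatory proteins bind the messages of ferritin and block their translation, and bind the message of the transferrin receptor and stabilise it, so much of this control does not show in the level of ferritin mRNA. Metallothioneins are small cysteine-rich proteins that bind zinc and copper, and their genes are switched on by the zinc-sensing factor MTF-1.

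The scanner files of replicates 1 and 2 held the same values in each group, so each such pair counted as 1 sample and the scanner fit rests on 2 distinct arrays per group. The file given for replicate 3 held the array found in the replicate 2 column of the authors' deposited value table, and the replicate 3 columns of that table matched no scanner file. Scanner arrays are therefore called slide 1 and slide 2 here, each slide holding 1 control and 1 AEPS array, and replicate numbers refer to the authors' table, which holds 3 distinct arrays per group. The table shares its first 2 arrays per group with the scanner fit and is no independent repeat of it. Between 55.4% and 58.7% of non-control spots were well above background on the 4 scanner arrays, whose number limits the precision. All 9 macrophage markers were above background on every array, and all 4 hepatocyte markers were below it on every array. Among erythroid markers, Alas2 and Gata1 were below background on every array, while 4 others were above it on each. Whether the samples were grown as separate cultures is not stated, so the p-values reflect differences among these arrays that may be technical only.

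Hmox1, Slc11a1, Slc39a14 and Mt2 were higher with AEPS, by 1.63-fold to 1.95-fold on the scanner arrays and by 1.55-fold to 2.09-fold in the authors' table, and their groups did not overlap in either source. In the scanner fit, with limma on values scaled to each array's 75th percentile, 0 of the 9 tested members passed an adjusted p of 0.05, against 8.72% of all named genes (5.24% higher, 3.48% lower). At an unadjusted p under 0.05 there were 4 members higher and 1 lower, against 17.8% and 18.3% of all genes. With the slide as a replicate block 4 members rose and 0 fell, where 33.6% of all genes passed (16.5% higher, 17.1% lower). The same 4 genes rose and 0 members fell in the authors' table, where 41.0% of all genes passed (21.4% higher, 19.6% lower). With the replicate number as a block in that table, 5 members rose, where 56.2% of all genes passed (28.4% higher, 27.8% lower). The groups did not overlap for 5 members in the table, all higher with AEPS, as for 56.5% of all genes (28.8% higher, 27.7% lower). On the scanner arrays they did not overlap for 8 of the 9 tested members, 5 higher and 3 lower, as for 67.7% of all genes (30.8% higher, 36.8% lower). Arrays scaled to their spike-in probes gave 1410 genes higher and 45 lower, against 788 and 524 by the 75th percentile, and 1497 and 1514 after normexp background correction, with the same 4 members higher in both of these alternatives. The ferritin genes, the transferrin receptor and Mt1 passed in none of these fits, and ferroportin was too dim to test.

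**Figure D1:**
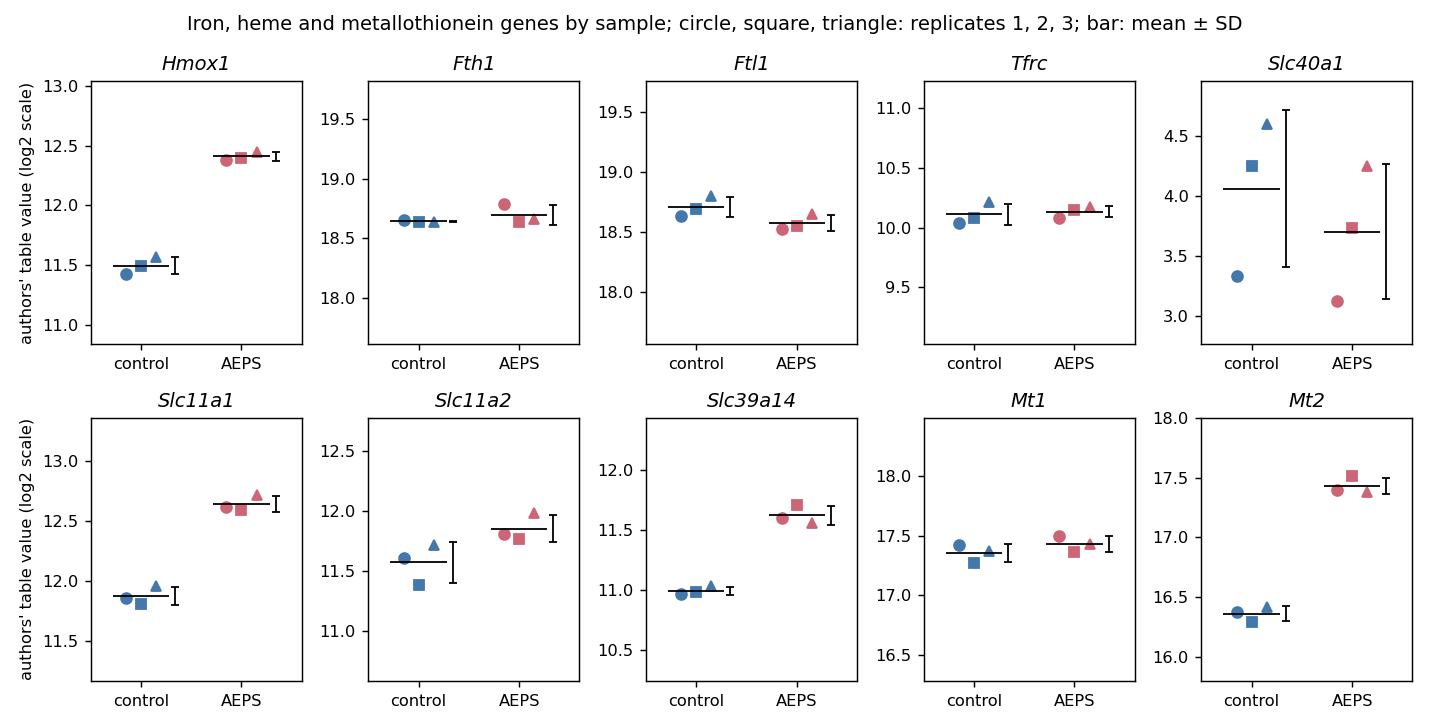
Values of the 10 genes in the authors' deposited table, on a log2 scale whose offset is not stated, for 3 control and 3 AEPS samples (circle, square and triangle for replicates 1, 2 and 3; line and bar, mean ± SD). Every panel spans the same height on the y axis. The AEPS samples lie above all controls for Hmox1, Slc11a1, Slc11a2, Slc39a14 and Mt2, and the groups overlap for the other 5 genes.

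Hmox1 encodes heme oxygenase 1, the inducible enzyme that splits heme into biliverdin, carbon monoxide and iron. Relative to each array's 75th percentile its log2 level was 2.90 and 3.10 on the control arrays of slides 1 and 2, and 3.88 and 4.04 on the AEPS arrays. Both AEPS arrays were above both controls, by 0.98 on slide 1 and 0.94 on slide 2. The log2 change was 0.96 ± 0.16 (moderated SE of limma, with 2 distinct arrays in each group, as for all scanner values here, 95% confidence interval 0.52 to 1.40, adjusted p = 0.0514, and 0.0336 with the replicate block). The authors' table held 11.43, 11.49 and 11.57 for the controls and 12.38, 12.40 and 12.45 for the AEPS samples. The groups stood clearly apart there, and the log2 change was 0.91 ± 0.070 (adjusted p = 0.00077).

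A second Hmox1 probe, nearer the start of the transcript, gave a smaller value. It is shown because its value was lower than that of the brighter probe, with the same sign. It lies on mouse build mm9 at chr8:77620797-77620856, forward strand, and starts at base 324 of the transcript, while the brighter probe at chr8:77624207-77624266 starts at base 1290.
Hmox1 A_55_P2029687: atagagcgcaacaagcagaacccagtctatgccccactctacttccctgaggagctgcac
This probe had a log2 change of 0.47 ± 0.16 on the scanner arrays (adjusted p = 0.136) and of 0.46 ± 0.12 in the authors' table (adjusted p = 0.0353), with every probe as its own feature. Its AEPS values in the table, 8.73, 8.76 and 8.84, were all above its control values of 8.08, 8.41 and 8.47. The difference between the probes was not tested.

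Genes of heme breakdown, transport and scavenging gave calls in both directions. Of 12 tested members of that list, Hmox1 included, 0 rose and 1 fell in the scanner fit, 1 rose and 4 fell with the replicate block, and 2 rose and 3 fell in the authors' table, Hmox1 being the riser with the block and 1 of the 2 in the table. Their median log2 change was -0.27, against -0.11 for all named genes, of which 8.72%, 33.6% and 41.0% passed in these fits. Slc46a1, a folate carrier that also moves heme, fell by 1.02 on the log2 scale (SE 0.13, adjusted p = 0.0361), but had -0.38 and did not pass with spike-in scaling (adjusted p = 0.425). Hmox2, the constitutive heme oxygenase, had -0.30 ± 0.16 (adjusted p = 0.267), and Blvrb, a biliverdin reductase and the brightest member that did not pass, had -0.22 ± 0.14 (adjusted p = 0.339). These last genes, Hmox2 and Blvrb, turned above 0 with spike-in scaling, at 0.33 and 0.42, where the median of all named genes was 0.53.

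Of 10 tested genes of heme synthesis 0 passed in the scanner fit. With the replicate block 1 rose and 5 fell, and 1 rose and 6 fell in the authors' table. Of all named genes 8.72%, 33.6% and 41.0% passed in these fits. The list had medians of -0.38 on the scanner arrays and -0.39 in the table. Alas1, the first and rate-limiting enzyme of the pathway in most tissues, named after its values were seen, had a log2 change of 0.79 (adjusted p = 0.0526, and 0.0341 with the block) and was the gene that rose in the table. Urod, uroporphyrinogen decarboxylase and the brightest member, had -0.49 ± 0.13 (adjusted p = 0.104, and 0.0465 with the block). With spike-in scaling it had 0.15, below the median of 0.53 for all named genes.

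Fth1 and Ftl1 encode the heavy and light chains of ferritin, the heavy chain oxidising iron and the light chain helping to lay it down in the protein's core. Their processed signals lay between 443060 and 566521 on the 4 scanner arrays, where saturation was set at 778497 and 778648, and no spot was saturated. Fth1 had log2 levels relative to the 75th percentile of 10.23 and 10.59 in controls and 9.95 and 10.01 with AEPS. Ftl1 had 10.22 and 10.63 in controls and 9.78 and 9.94 with AEPS. Both genes were thus lower with AEPS on both slides under this scaling, while their unscaled signals were higher. The log2 changes were -0.44 ± 0.18 for Fth1 (adjusted p = 0.192, and 0.0877 with the block) and -0.57 ± 0.20 for Ftl1 (adjusted p = 0.150, and 0.0573 with the block).

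These directions depended on the scaling. Fth1 in the authors' table held 18.65, 18.64 and 18.64 in controls and 18.79, 18.64 and 18.66 with AEPS, a log2 change of 0.053 ± 0.0705 (adjusted p = 0.606). Ftl1 held 18.63, 18.69 and 18.80 in controls and 18.52, 18.55 and 18.65 with AEPS, a log2 change of -0.13 ± 0.079 (adjusted p = 0.254). The groups overlapped for both genes. The 95% confidence intervals in the table ran from -0.12 to 0.23 for Fth1 and from -0.33 to 0.065 for Ftl1. Sorted columns of the table differ by at most 0.01, which limits how far such bright probes can differ between columns. These intervals therefore do not show that ferritin mRNA was unchanged. With spike-in scaling the values were 0.20 and 0.067, both above 0 but below the median of 0.53 for all named genes. Processed copies of ferritin genes are known in the mouse genome, and a share of signal from them was not tested.

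In the list of iron storage and trafficking, 0 of 6 tested genes passed in the scanner fit, where 8.72% of all named genes passed. With the block 1 was higher and 1 lower, and likewise in the table, where 33.6% and 41.0% of all named genes passed. Pcbp1, which delivers iron to ferritin and was the brightest other member, had 0.032 ± 0.14 (adjusted p = 0.888).

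**Figure D2:**
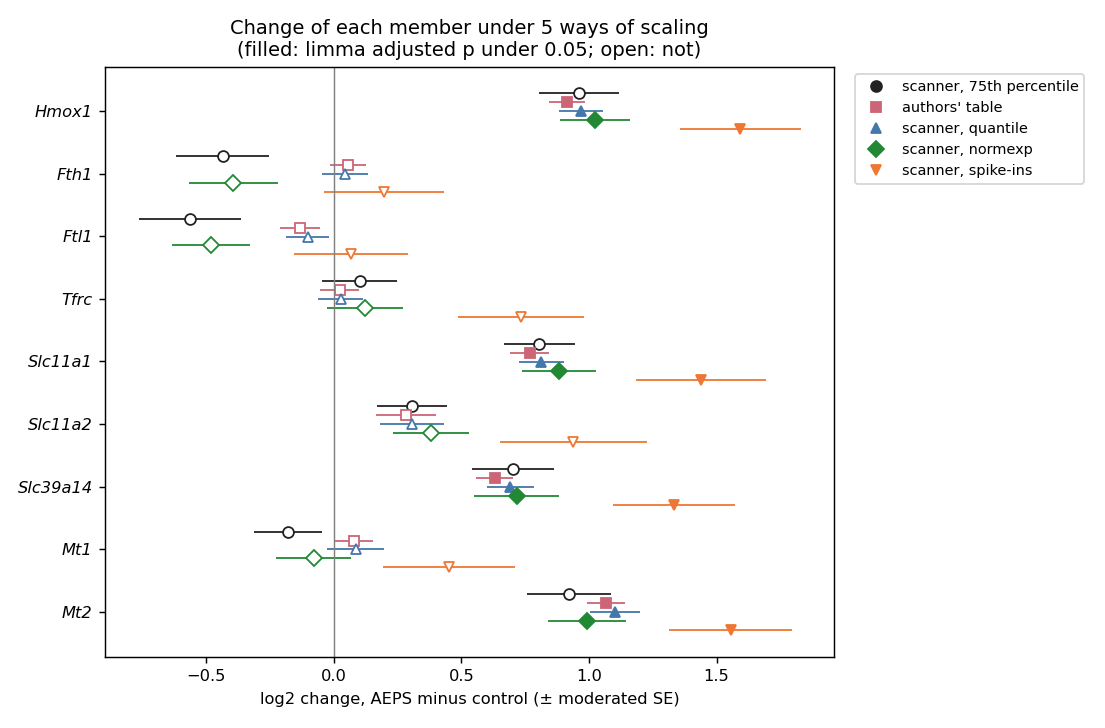
Log2 change, AEPS minus control, of the 9 tested genes under 5 ways of scaling, with limma's moderated SE as bars, from 2 distinct scanner arrays per group or the 3 columns per group of the authors' table (squares). Filled points passed an adjusted p of 0.05. Hmox1, Slc11a1, Slc39a14 and Mt2 lie above 0.6 under every scaling, while Fth1, Ftl1 and Mt1 change sign between scalings.

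Tfrc encodes transferrin receptor 1, which takes up transferrin-bound iron. Its brightest probe, averaged over 10 spots, had log2 levels relative to the 75th percentile of 1.45 and 1.58 in controls and 1.53 and 1.70 with AEPS. The groups overlapped, and the log2 change was 0.10 ± 0.15 (adjusted p = 0.665). Table values were close, as the controls held 10.04, 10.08 and 10.21 and the AEPS samples 10.08, 10.15 and 10.17, a log2 change of 0.023 ± 0.076 (adjusted p = 0.847). The 95% confidence interval there ran from -0.17 to 0.21. With spike-in scaling Tfrc had 0.73, against the median of 0.53 for all genes.

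Both other Tfrc probes gave larger values than the brightest one, and are shown for that reason. The brightest lies at chr16:32632255-32632314 (mm9, forward strand) and starts at base 4288 of the transcript. The others start at bases 1228 and 1732, at chr16:32620470-32620529 and chr16:32624877-32625093, the last spanning 217 bases of the genome with its 60 bases.
Tfrc A_65_P06446: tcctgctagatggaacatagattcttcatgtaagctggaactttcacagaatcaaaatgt
Tfrc A_51_P167876: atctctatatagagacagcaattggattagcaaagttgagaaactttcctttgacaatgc
The first of these held 9.55, 9.74 and 9.82 in controls and 9.86, 9.91 and 9.97 with AEPS in the authors' table. The second held 5.82, 6.20 and 6.45 in controls and 6.56, 6.96 and 6.74 with AEPS. Neither overlapped between groups, but neither passed. Their log2 changes were 0.21 ± 0.093 (adjusted p = 0.140) and 0.60 ± 0.19 (adjusted p = 0.0631) in the table, and 0.27 ± 0.17 (adjusted p = 0.311) and 0.60 ± 0.14 (adjusted p = 0.0714) on the scanner arrays.

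Slc11a1, also called Nramp1, encodes a metal transporter of the phagosome membrane that moves iron and manganese out of the phagosome. Its log2 level relative to the 75th percentile was 3.34 and 3.44 in controls and 4.14 and 4.25 with AEPS. The AEPS arrays were higher by 0.80 on slide 1 and 0.81 on slide 2. The log2 change was 0.81 ± 0.14 (95% confidence interval 0.42 to 1.19, adjusted p = 0.0538, and 0.0338 with the block). The table columns held 11.86, 11.81 and 11.96 in controls and 12.62, 12.59 and 12.72 with AEPS, again without overlap, a log2 change of 0.77 ± 0.077 (adjusted p = 0.00168). Its 1 probe lies at chr1:74432161-74432220 (mm9, forward strand).

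Slc11a2 encodes DMT1, the related transporter that carries ferrous iron from endosomes into the cytosol. Its brightest probe had log2 levels relative to the 75th percentile of 3.07 and 2.98 in controls and 3.28 and 3.38 with AEPS, without overlap. The log2 change was 0.31 ± 0.14 (adjusted p = 0.214). In the authors' table the controls held 11.61, 11.38 and 11.72 and the AEPS samples 11.81, 11.77 and 11.98. Each AEPS sample was above every control, by a mean of 0.28 ± 0.12 on the log2 scale (adjusted p = 0.121, but 0.0314 with the replicate number as a block). It was the fifth member to pass in that fit.
Slc11a2 A_52_P254298: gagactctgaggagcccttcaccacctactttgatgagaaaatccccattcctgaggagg
This second probe (chr15:100240516-100240575, mm9, reverse strand, from base 253 of the transcript) is shown because it reads the message far from the brightest probe, which starts at base 2961. It had nearly the same change, 0.30 ± 0.14 on the scanner arrays (adjusted p = 0.215) and 0.34 ± 0.072 in the table (adjusted p = 0.0168), where it held 8.30, 8.42 and 8.30 in controls and 8.74, 8.63 and 8.68 with AEPS.

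Slc39a14 encodes ZIP14, a carrier of zinc, manganese and iron that is not bound to transferrin. Its log2 level relative to the 75th percentile was 2.41 and 2.56 in controls and 3.07 and 3.30 with AEPS. Both slides showed the difference, at 0.66 and 0.75. The log2 change was 0.70 ± 0.16 (95% confidence interval 0.25 to 1.15, adjusted p = 0.0790, and 0.0355 with the block). In the deposited table of the authors the controls held 10.97, 10.98 and 11.03 and the AEPS samples 11.60, 11.71 and 11.56, a log2 change of 0.63 ± 0.071 (adjusted p = 0.0024). Its probe lies at chr14:70703394-70703453 (mm9, reverse strand).

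Among 12 tested genes of iron uptake and reduction 1 rose and 0 fell in the scanner fit, 4 rose and 2 fell with the block, and 5 rose and 3 fell in the table. The median log2 change was 0.20, against -0.11 for all named genes, of which 8.72%, 33.6% and 41.0% passed in these fits. The riser was Lcn2, which encodes lipocalin 2, a protein that captures bacterial iron carriers, at 2.62 ± 0.16 (adjusted p = 0.0151). Its log2 level relative to the 75th percentile went from -0.78 and -1.02 in controls to 1.64 and 1.80 with AEPS. Slc39a8, the ZIP8 gene and the closest relative of Slc39a14, had 0.82 ± 0.21 (adjusted p = 0.0909) but was above background on only 1 of 2 control arrays, and had -0.075 after normexp background correction. Mcoln1, an endolysosomal channel and the brightest gene outside the 10 that did not pass, had -0.056 ± 0.18 (adjusted p = 0.848).

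Slc40a1 encodes ferroportin. Its probe was well above background on 1 of 2 control arrays and on neither AEPS array, so it was not tested. The processed signals were 13.9 and 14.6 in controls and 13.9 and 12.9 with AEPS. In the authors' table it held 3.33, 4.25 and 4.60 in controls and 3.12, 3.73 and 4.25 with AEPS, below the column median of 4.71 in all 6 samples. The groups overlapped. Fitted without a filter on dim probes, its log2 change was -0.74 on the scanner arrays (adjusted p = 0.339) and -0.36 in the table (adjusted p = 0.718), with a 95% confidence interval from -1.49 to 0.77 in the table, so a difference was not detectable at this signal.

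Of 7 tested genes in the list of iron export and its control 0 rose and 1 fell in the scanner fit. With the block 1 rose and 2 fell, and 2 rose and 2 fell in the table. The shares of all named genes passing in these fits were 8.72%, 33.6% and 41.0%. Cp, 1 of the 2 risers in the table (adjusted p = 0.0308), was above background on only 1 of 2 control arrays. It entered the test through the AEPS arrays, so its direction was largely set by the filter. Smad6, an inhibitor of the BMP signals that govern hepcidin in the liver, fell by 2.03 on the log2 scale (SE 0.19, adjusted p = 0.0258). Its level relative to the 75th percentile was -0.62 and -0.32 in controls and -2.65 and -2.36 with AEPS. Id1, another gene of that pathway and the brightest that did not pass, had 0.61 ± 0.15 (adjusted p = 0.0852, and 0.0408 with the block). Hamp, the hepcidin gene, was below background on every array.

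Mt1 and Mt2 encode the metallothioneins that most tissues make, and are neighbours on chromosome 8. Their probes lie at chr8:96704165-96704224 and chr8:96697371-96697430 (mm9, forward strand). The first 30 bases of each are shown because these genes are close relatives and only Mt2 passed in the authors' table. The longest run the full probes share is 7 bases.
Mt1 A_66_P111660: cctgtttactaaacccccgttttctaccga
Mt2 A_51_P246317: agaagcctagccttttttgtacaaccctga
Mt2 had log2 levels relative to the 75th percentile of 8.01 and 8.13 in controls and 8.85 and 9.13 with AEPS. Both AEPS arrays were higher than both controls, by 0.84 on slide 1 and 1.0 on slide 2. The log2 change was 0.92 ± 0.17 (95% confidence interval 0.46 to 1.38, adjusted p = 0.0574, and 0.0345 with the block). In the authors' table the controls held 16.38, 16.29 and 16.42 and the AEPS samples 17.40, 17.51 and 17.38. These groups were far apart, with a log2 change of 1.07 ± 0.075, or 2.09-fold (adjusted p = 0.000598).

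Mt1 had log2 levels relative to the 75th percentile of 9.09 and 9.20 in controls and 8.94 and 8.99 with AEPS, a log2 change of -0.18 ± 0.13 (adjusted p = 0.402, and 0.141 with the block). The table's controls held 17.42, 17.27 and 17.37 and its AEPS samples 17.50, 17.36 and 17.43. The groups overlapped there, the log2 change was 0.077 ± 0.077 (adjusted p = 0.494), and its 95% confidence interval ran from -0.12 to 0.27. The value was above 0 with quantile normalization and spike-in scaling too, at 0.086 and 0.45. With spike-in scaling the median of all named genes was 0.53.

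The change of Mt2 exceeded that of Mt1 by 0.99 on the log2 scale in the authors' table and by 1.1 on the scanner arrays. This contrast was chosen after the values were seen. An exact permutation of the table's columns gave a two-sided p of 0.1, the smallest that its 20 arrangements can give. It cannot decide a contrast picked from the same values, so no conclusion is drawn from it.

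**Figure D3:**
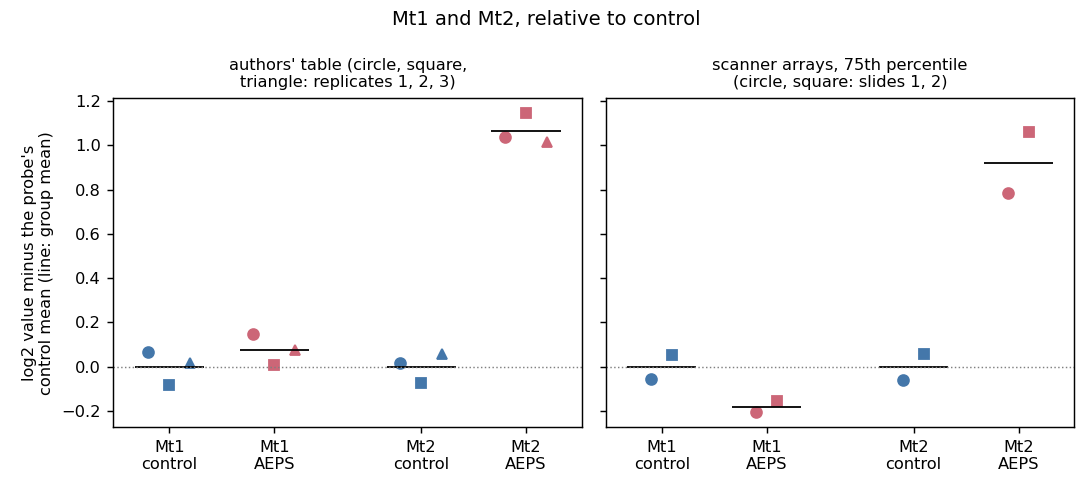
Log2 values of the Mt1 and Mt2 probes minus each probe's own control mean, in the authors' table (left, 3 samples per group) and on the scanner arrays scaled to the 75th percentile (right, 2 distinct arrays per group), with lines at group means. Mt2 lies about 1 unit above control with AEPS in both panels. Mt1 lies at 0.077 above its control mean on the left and at -0.18 on the right.

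The promoters of both genes are shown because MTF-1 acts through metal response elements, short motifs near the start of metallothionein genes. Of the 10 genes 6 had an entry among RefSeq promoters (GRCm38.p6). Windows held the 250 bases before each start and were searched on both strands for TGCACNC or TGCGCNC. Capitals mark the matches below. The Mt2 window is chr8:94172368-94172617 and the Mt1 window chr8:94178839-94179088, both on the forward strand.
Mt2 promoter: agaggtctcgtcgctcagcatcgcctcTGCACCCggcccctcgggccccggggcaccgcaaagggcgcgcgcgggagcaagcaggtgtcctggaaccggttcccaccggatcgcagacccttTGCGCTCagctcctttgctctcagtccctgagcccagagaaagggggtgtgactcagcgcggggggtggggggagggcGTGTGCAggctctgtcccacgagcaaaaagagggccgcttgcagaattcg
Mt1 promoter: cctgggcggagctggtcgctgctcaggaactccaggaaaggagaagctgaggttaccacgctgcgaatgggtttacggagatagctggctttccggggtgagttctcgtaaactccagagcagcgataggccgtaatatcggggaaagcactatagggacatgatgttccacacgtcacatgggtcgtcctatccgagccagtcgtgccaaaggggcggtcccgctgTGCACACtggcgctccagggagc
The Mt2 window held 3 matches, at 223, 128 and 50 bases before the start, and the Mt1 window held 1, at 23 bases. These counts depend on where RefSeq places the start. In the whole entries, which run 50 bases past it, the Mt2 entry held 4 matches and the Mt1 entry 3, 2 of them reaching past the start, and 1.97% of all entries held 3 or more, so the windows are not compared with each other. Of 32851 RefSeq promoter windows of this length 21.4% held at least 1 match and 1.26% held 3 or more. The Mt2 window also held 1 match to the AP-1 motif TGACTCA, found as itself or its reverse complement in 4.46% of windows, and at the same place 1 match to the antioxidant response element core TGACNNNGC, found in 10.2%. One of 2 Tfrc entries held 2 overlapping metal response matches, and the windows of Slc11a1, Ftl1 and Fth1 held none of these motifs. A match in these letters is a description and not evidence of binding.

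Of 5 tested genes in the list of metallothioneins and their control 1 rose in the scanner fit, and 2 rose and 1 fell both with the block and in the table. In these fits 8.72%, 33.6% and 41.0% of all named genes passed. The riser was Mtf1, which encodes the zinc-sensing factor itself, at 1.32 ± 0.21 (adjusted p = 0.0484). Its level relative to the 75th percentile was -0.20 and 0.05 in controls and 1.04 and 1.44 with AEPS, and it rose in the authors' table too, by 1.22 ± 0.15 (adjusted p = 0.00334). Mt3, a metallothionein best known from brain, had -0.86 ± 0.18 (adjusted p = 0.0707, and 0.0348 with the block).

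Zinc transporters gave 0 calls among 20 tested genes in the scanner fit, 5 higher and 2 lower with the block, and 8 higher and 3 lower in the table, with median log2 changes of 0.22 and 0.26. Slc30a1, the zinc exporter that MTF-1 is known to induce, had -0.33 ± 0.16 (adjusted p = 0.239) and -0.33 ± 0.080 in the table, where it fell (adjusted p = 0.0287). With spike-in scaling it had 0.30, below the median of 0.53 for all named genes. Slc39a1, the brightest, had 0.13 ± 0.15 (adjusted p = 0.605). Slc39a8, which rose in the table (adjusted p = 0.0275), was above background on only 1 of 2 control arrays. Of 9 copper genes 1 rose in the scanner fit, and 2 rose and 1 fell both with the block and in the table. Shares of all named genes passing in these fits were 8.72%, 33.6% and 41.0%. The riser in the scanner fit was Slc31a2, a relative of the copper importer CTR1, at 2.45 ± 0.17 (adjusted p = 0.0186), while Sod1, copper-zinc superoxide dismutase, had -0.39 ± 0.18 (adjusted p = 0.232).

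The sensors of iron and oxygen gave calls in both directions, as all named genes did. Of 7 tested genes 2 rose and 1 fell in the scanner fit, where 5.24% of all named genes rose and 3.48% fell. Both with the block and in the authors' table, 3 rose and 2 fell. Among all named genes 16.5% rose and 17.1% fell with the block, and 21.4% rose and 19.6% fell in the authors' table. The median log2 change of the sensors on the scanner arrays was -0.39, against -0.11 for all named genes. Ireb2, the gene of iron regulatory protein 2, rose by 1.29 ± 0.13 (adjusted p = 0.0271), from -1.98 and -1.91 relative to the 75th percentile in controls to -0.66 on both AEPS arrays. Aco1, the gene of iron regulatory protein 1, fell by 1.02 on the log2 scale (SE 0.14, adjusted p = 0.0419), from -1.67 and -1.48 to -2.60 and -2.59. Both passed in the authors' table, at 1.39 ± 0.13 (adjusted p = 0.00144) and -0.83 ± 0.19 (adjusted p = 0.0239). With spike-in scaling Ireb2 had 1.92 (adjusted p = 0.0394), but Aco1 had -0.39 and did not pass (adjusted p = 0.384). The median of all named genes under that scaling was 0.53. Hif1a, the hypoxia-inducible factor gene, rose by 1.09 ± 0.15 (adjusted p = 0.0399). Fbxl5, whose product marks iron regulatory protein 2 for breakdown when iron is plentiful, had 0.60 ± 0.19 (adjusted p = 0.126, and 0.0391 with the block). Egln2, a prolyl hydroxylase acting on hypoxia-inducible factors and the brightest that did not pass, had -0.66 ± 0.14 (adjusted p = 0.0719, and 0.0353 with the block).

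Among 13 tested regulators of heme oxygenase and ferritin transcription and their companion targets 3 rose and 0 fell in the scanner fit. With the block 5 rose and 2 fell, and 6 rose and 2 fell in the table. Of all named genes 8.72%, 33.6% and 41.0% passed in these fits. Nfe2l2, the gene of NRF2, which activates Hmox1 and both ferritin genes, rose by 1.33 ± 0.17 (adjusted p = 0.0377), from 3.25 and 3.50 relative to the 75th percentile to 4.60 and 4.82. Bach1, the heme-binding repressor of Hmox1, had 0.068 ± 0.19 (adjusted p = 0.826), with a 95% confidence interval in the authors' table from -0.35 to 0.57. Maff, a small Maf partner of these factors, rose by 2.86 ± 0.13 (adjusted p = 0.00948). The third call was the cystine carrier gene Slc7a11, at 3.29 ± 0.37 (adjusted p = 0.0312). It was above background on only 1 of 2 control arrays and entered the test through the AEPS arrays, so its direction was largely set by the filter, and its value was 1.66 after normexp correction. Txnrd1, a thioredoxin reductase and the brightest that did not pass, had 0.68 ± 0.13 (adjusted p = 0.0612, and 0.0351 with the block).

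Over all 10 lists together, 99 of 120 genes were tested. In the scanner fit 8 rose and 3 fell, where 8.72% of all named genes passed. With the replicate block 24 rose and 22 fell, where 33.6% passed, and 30 rose and 24 fell in the authors' table, where 41.0% passed. The risers include Slc7a11 and, in the table, also Slc39a8 and Cp. Each of these was above background on only 1 of 2 control arrays, so its direction was largely set by the filter. With spike-in scaling 17 list genes were higher and 1, Smad6, was lower. Their median log2 change was -0.069 on the scanner arrays and 0.033 in the table, against -0.11 and -0.023 for all named genes.

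**Figure D4:**
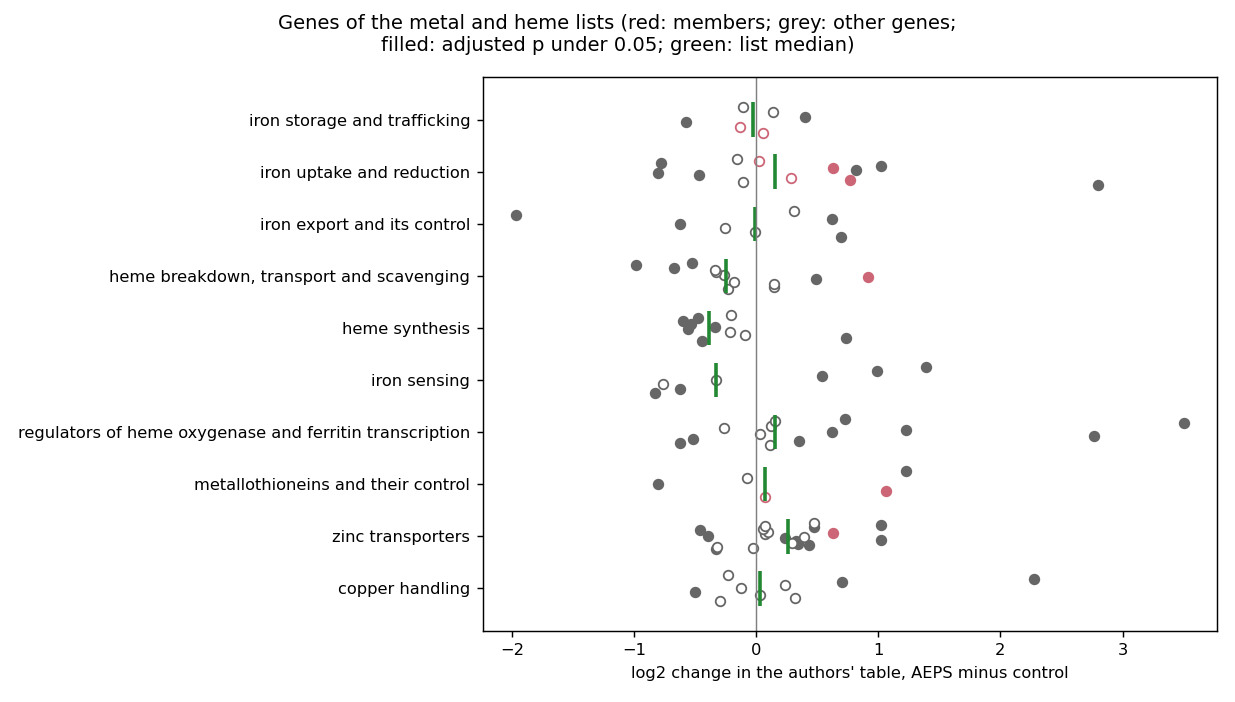
Log2 change in the authors' table (3 columns per group) of each tested gene in 10 lists of metal and heme genes, with the members described here in red, other genes in grey, filled points past an adjusted p of 0.05, and a green line at each list's median. Heme synthesis has a median of -0.39 with 1 gene risen and 6 fallen, and all 10 lists hold points on both sides of 0. Of all named genes 21.4% rose and 19.6% fell in this table, with a median of -0.023.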

How the data were processed

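The authors deposited scanner files with spot intensity values (processed signal, mean pixel signal, local background), made with Agilent Feature Extraction 10.7.1.1 per the file headers, and a table on a log2 scale with 1 column per sample. The authors' table has sorted columns that differ by at most 0.01 and a median of 4.71 in each, and its method and offset are not given in the sources used here. Probe sequences and positions, on mm9 per the file headers, come from the scanner files.

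Flagged spots were set to missing, spots of a probe averaged, and the 75th percentile of an array's non-control spots subtracted from its log2 processed signal. Tests covered probes well above background on both arrays of 1 group or of both, and the brightest tested probe stood for its gene. Groups were compared with limma 3.58.1 in R 4.3.3 at an adjusted p of 0.05 (Benjamini-Hochberg, 25919 features, 15050 of them named genes). The table was fitted on the same features. For a gene dim in 1 group this filter asks that it be bright in the other, and so mostly sets its direction. The calculations were tested on simulated data.

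Replicate numbers pair the samples: the deviations from group means of samples with 1 number correlated at 0.579, 0.385 and 0.413 in the table, against -0.496 to 0.240 for other pairs, and at 0.620 on the scanner slides. Blocked values stand beside results they change. With 2 arrays per group the slide block leaves little from which to estimate spread. Several genes share the same blocked adjusted p, 0.0336 for Hmox1, Lcn2, Smad6, Maff and Mtf1, so these values do not rank genes. Alternatives covered background correction, scaling, filter, probe choice, block, source of values and left-out arrays.

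The members and lists were chosen with earlier results of these data known. The text names the members, up to 5 genes per list past the threshold, the brightest gene that did not pass, and Nfe2l2, Bach1, Mtf1, Aco1, Ireb2, Fbxl5, Slc30a1, Hmox2, Lcn2 and Slc39a8 whatever their value. Alas1 and Cp, named after their values were seen, and Hamp stand outside this rule. Markers of fibroblasts were above background on every array for 1 of 5, epithelium 0 of 4, T cells 2 of 4 and B cells 1 of 4. A marker gene on the array is not reported here.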

Additional observations from a re-analysis of the deposited data

How the results depend on the processing

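Values were recomputed under 23 alternatives for each of the 9 tested genes. Hmox1, Slc11a1, Slc39a14 and Mt2 kept values above 0 in all of them, at 0.71 to 1.59, 0.73 to 1.44, 0.58 to 1.33 and 0.79 to 1.55, and passed in 16, 16, 14 and 15 of them, with adjusted p up to 0.311 where they did not. All 4 missed the threshold with no filter, with the mean of probes, with flagged spots kept, and whichever scanner array was left out, where a group keeps 1 array assumed to vary like the other group's. These misses were in fits of the scanner arrays, and all 4 passed in the authors' table without a filter. Slc11a2 passed in 1 of the 23 alternatives and the other 4 genes in none. Counts of all named genes past the threshold moved too, from 1312 in the scanner fit to 3011 with normexp and 2337 with quantile. They were 1455 with spike-ins, 3885 with detected-probe scaling and 1638 with probes above background on every array. Members past the threshold, 0 in the scanner fit, were 4 with normexp, quantile, spike-in or detected-probe scaling, the replicate block, the authors' table and its 4 columns with a scanner file (added after seeing the data), 5 in the table with the block, 3 with probes above background on every array, 2 with every probe its own feature, 0 whichever scanner array was left out, and 4 whichever column of the table was left out.

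Signs turned for Fth1 with quantile (0.042) and spike-in scaling (0.20) and in the table (0.053 with and without the block, 0.0067 to 0.082 leaving out a column, 0.070 with the 4 columns), for Ftl1 with spike-ins (0.067), for Tfrc in the table without control replicate 1 (-0.012), and for Mt1 with quantile (0.086) and spike-in scaling (0.45) and in the table (0.077 with and without the block, 0.035 to 0.11 leaving out a column, 0.085 with the 4 columns). Leaving out 1 scanner array gave lows of -0.62 for Fth1 and -0.23 for Mt1 and a high of 0.19 for Tfrc. With spike-in scaling the median of all named genes was 0.53. The cause of the turned signs was not tested.

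Named genes past the threshold, 1312 in the scanner fit, were 3011 with normexp (1497 higher, 1514 lower), 2337 with quantile, 3885 with detected-probe scaling, 5057 with the replicate block, 6178 in the table, 8452 in the table with the block, 1985 with its 4 columns, 7 to 518 without 1 scanner array and 4094 to 5314 without 1 column. Without a filter limma called 0 genes, with 4396 at an unadjusted p under 0.05. Spike-ins gave 1410 higher and 45 lower.

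List genes past the threshold, 11 in the scanner fit, were 30 with normexp, 25 with quantile, 18 with spike-ins (17 higher, 1 lower), 40 with detected-probe scaling, 17 with probes above background on every array or every probe its own feature, 0 with no filter (37 at an unadjusted p under 0.05), 46 with the block, 54 in the table, 64 in the table with the block, 22 with its 4 columns, 0 to 5 without 1 scanner array and 42 to 49 without 1 column. The 2 distinct arrays per group limit the scanner fit, and Slc40a1 lies too near background to compare.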
